A study of Danio rerio with 2 samples.

Results

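The enzymes that build purines from ribose phosphate were followed step by step on 2 expression arrays of zebrafish pigment cells. They were the 8 genes prps1a, ppat, gart, paics, adsl, atic, impdh1b and impdh2, taken as every probe set whose only gene symbol in the platform annotation is one of these names. All 8 had a probe set, 9 probe sets in all, out of 8793 named genes on an array with 15502 transcript probe sets. Both preparations came from the caudal and anal fins of wild-type adult zebrafish over 2 months old, bought from a pet shop. Fins of 1000 fish were pooled and digested with trypsin and collagenase, and a centrifuge or a cell sorter then separated the pigment cells, so each array averages over many animals. The comparison in the design is melanophores, the black cells, against xanthophores, the yellow cells, with 1 array each.

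The labels contradict each other. The sample titled melanophores has xanthophores in its source name and cell type fields, and the sample titled xanthophores has melanophores there. Below, the array of the sample titled melanophores is array M and that of the sample titled xanthophores is array X. In each pair of signals array M comes first, and a ratio is M over X unless said otherwise. On array M, 5 of 7 measured xanthophore markers were 2-fold or more brighter, against 15.5% of all measured genes. Among them was bco1, which cleaves carotenoids (3076.2 against 95.2). The 2 others were pax7a and slc2a15b. The ratio of pax7a was at least 1.99 on its brightest probe set (86.7 against 23.4, under the floor). A second probe set gave at least 1.89 (82.3 against 18.4). Its others read higher on array X (32.7 against 44.0, and 23.8 against 33.6), with signals next to or under the floors. Both probe sets of slc2a15b read higher on array X (3444.2 against 4348.7, and 79.6 against 133.2). Among 10 listed melanophore markers, probe sets named 4, of which 3 could be measured and 1 was past 2-fold: the melanin enzyme gene dct, brighter on array X (50.1 against 590.1). The pigment cell regulator mitfa read somewhat higher on array M (358.1 against 243.2, a ratio of 1.47, and 1.13 with spike-in controls set equal). The signals of tyr (48.4 against 39.2) lay near the floor on both arrays, and those of pmelb (1.9 against 3.2) lay under it. Which cell type a direction belongs to therefore depends on which label is taken. RNA of a mixed preparation also cannot separate fewer cells of a type from less RNA per cell.

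Purine rings are built on a ribose phosphate scaffold. PRPP synthetase activates the sugar, a chain of enzymes adds ring atoms from glutamine, glycine, formyl folate, carbon dioxide and aspartate, and the first complete purine is IMP. From IMP, the IMP dehydrogenases make XMP, which leads to GTP, and another branch leads to AMP. In fish pigment cells GTP is the precursor of the yellow pteridines of xanthophores, and guanine forms the reflecting crystals of iridophores. Zebrafish mutants of gart and paics have been described with pigment defects. The 2 IMP dehydrogenase genes lie past IMP and thus follow the de novo route proper.

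With a single array for each preparation there is no replicate spread, and no difference was tested. The available error is technical. Between bright probe sets of the same gene the SD of the log2 ratio was 0.38 (over 201 genes), a factor of 1.30. Where both signals were at or above the floor, this SD was 0.57 if the dimmer one was under 2 times the floor (47 genes) and 0.39 otherwise (277 genes). Array M was the brighter one in general: its 18 spike-in control probe sets, of which all 18 were brighter there, gave log2 ratios of 0.18 to 0.97, median 0.38, and the 5501 measured genes had a median of 0.36. A gene was called measured when the brighter of its signals reached that array's median, and signals under that median (47.2 and 43.5), the floor, were raised to it before a ratio was taken.

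Purine synthesis genes were brighter on array M at every measured step from ribose phosphate to IMP. All 8 genes were measured, and 7 were 2-fold or more brighter there, against 15.5% of all measured genes. None was 2-fold brighter on array X, against 4.09% of measured genes. At 4-fold the counts were 5 of 8 towards array M, against 2.22% of measured genes, and 0 towards array X, against 1.15%. Among the 7 of these genes whose brighter signal reached its array's 75th percentile, 6 were 2-fold and 4 were 4-fold brighter on array M, against 21.1% and 3.72% of all genes that bright. The median log2 ratio of the 8 genes was 2.22, a factor of 4.67, beside 0.36 over all measured genes. For the 6 genes up to IMP alone it was 2.78, and all 6 were past 2-fold. With the spike-ins set equal, 6 of 8 were 2-fold brighter on array M, against 6.59% of measured genes, and 0 on array X, against 8.25%.

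**Figure D1:**
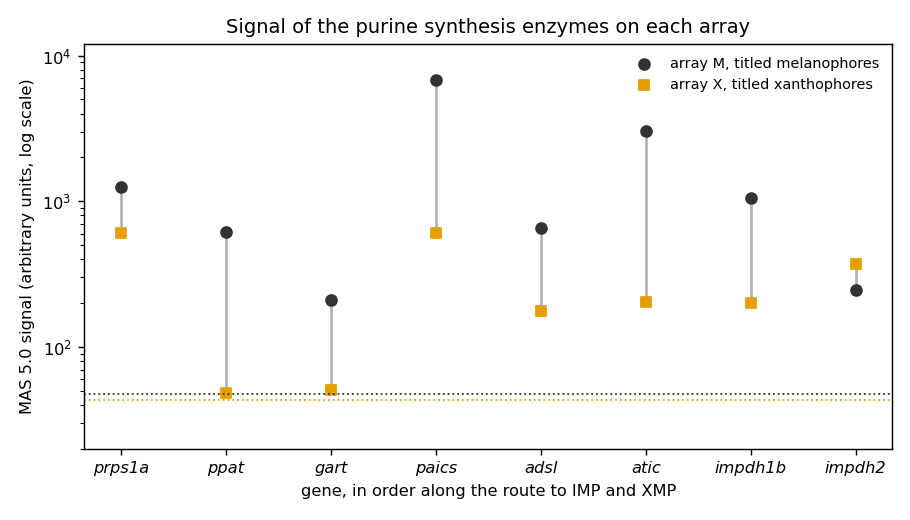
MAS 5.0 signal (arbitrary units, log axis) of the 8 genes, in order along the route, on array M (dark circles) and array X (orange squares), 1 array each with no error bar; dotted lines are the floors of 47.2 and 43.5. The circle is above the square for 7 genes, with the widest gaps at ppat, paics and atic, and below it for impdh2; the squares of ppat and gart lie next to the floors.

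The entry to the route had the smallest difference of the genes up to IMP. PRPP synthetase, which prps1a (NCBI gene ID 140620) encodes, had signals of 1254.1 and 601.3, a ratio of 2.09. That gene was bright on both arrays, above 92.5% and 89.8% of the transcript probe sets. It ranked 742nd of 5501 measured genes by ratio. The call at 2-fold rests on the scaling: the ratio was 1.60 with the spike-ins set equal, and 1.42 to 1.60 over the 5 scalings that took it under 2-fold. Its close relative prps1b was measured at 81.4 against 45.8, a ratio of 1.78. The regulatory PRPP synthetase-associated gene prpsap2 stood at 362.6 against 254.3, a ratio of 1.43.

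The committed step had one of the largest ratios. Amidophosphoribosyltransferase, the product of ppat (gene ID 572027), takes PRPP into the route and is its main point of feedback control. The signals of ppat were 618.6 and 48.3, a ratio of 12.8, which ranked 14th among measured genes. On array X the signal was above 52.3% of probe sets, which is next to the floor, and with the floor raised to the 65th percentile the ratio was bound to at least 6.62. The log2 ratio of 3.68 was larger than the probe set spread of 0.57 for dim signals.

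The trifunctional enzyme gene gart (gene ID 58141) was brighter on array M by a smaller ratio than ppat. Its product carries the glycine-adding step, a transfer of a formyl group from folate and the closing of the first ring. Signals were 209.0 and 50.4, a ratio of 4.15, ranked 113th. The lower signal was above 53.3% of probe sets, and a floor at the 65th percentile left a bound of at least 2.24. The enzyme pfas, which acts between these activities, was not analysed here.

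The next gene, paics, showed a wide gap without a dim signal. It encodes the enzyme that adds carbon dioxide and then aspartate to the growing ring. The probe set of paics (gene ID 321193) read 6827.6 and 601.6, above 99.5% and 89.8% of the probe sets of each array, and the ratio of 11.3 ranked 16th. The floor had no part in this value, and over all settings tried the ratio ran from 7.72 to 16.04. The log2 ratios of ppat and paics were 3.68 and 3.50. Their difference of 0.17 was within the spread of 0.54 that bright probe sets give for a difference between ratios. The signal of ppat on array X was dim, and the SD of a single ratio was larger for dim signals (0.57). In RefSeq's gene order on the GRCz12tu assembly, paics and ppat are adjacent and their spans overlap. Whether their probe sets share target sequence was not tested.

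Adenylosuccinate lyase, adsl (gene ID 334431), had a smaller ratio than the genes on either side of it. The enzyme releases fumarate in this route and acts a second time in the branch from IMP to AMP. Signals were 657.5 and 177.1, a ratio of 3.71, ranked 144th. Its log2 ratio of 1.89 was close to that of gart, with a difference of 0.16, and lay 2.02 under that of atic, which is a factor of 4.05 and beyond the probe set spread.

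The last enzyme before IMP had the highest ratio of the 8 genes. The bifunctional product of atic (gene ID 140622) adds the second formyl group from folate and closes the second ring. Signals were 3057.4 and 203.4, a ratio of 15.03, ranked 8th among measured genes. Over all settings tried it ran from 10.2 to 21.2. The genes ppat, paics and atic, at the committed step, the middle and the end of the route in that order, were all among the 16 highest ratios, 0.291% of measured genes. Their order is not settled by these data. On the log2 scale atic lay 0.23 over ppat and 0.41 over paics, each within the spread of 0.54 for bright probe sets.

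**Figure D2:**
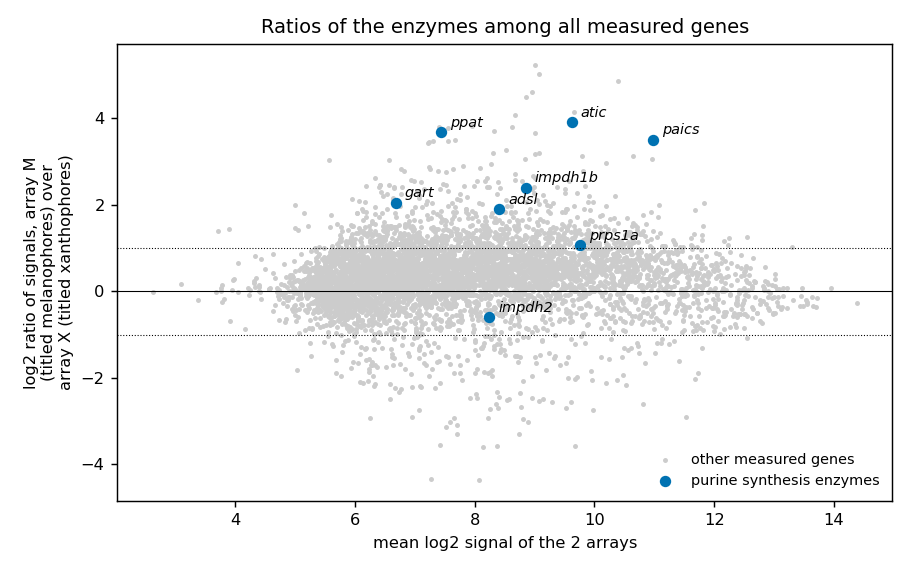
Log2 ratio of array M over array X (vertical) against the mean log2 signal of both arrays (horizontal) for the 5501 measured genes (grey) and the 8 purine genes (blue, named); dotted lines mark 2-fold either way. The genes atic, ppat and paics lie at the upper edge of the cloud, prps1a just above the dotted line at 2-fold, and impdh2 below 0.

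The step from IMP to XMP split between its 2 genes. Of these, impdh1b (gene ID 338306) had signals of 1059.8 and 201.8 on its bright probe set, a ratio of 5.25, ranked 75th. Its other probe set read 6.5 and 4.0, under the floor on both arrays, and gave no ratio. The probe set of impdh2 (gene ID 317745) read 245.8 and 372.0, a ratio of 1.51 towards array X. That placed impdh2 at rank 5033 of 5501, the only one of the 8 genes with the higher signal on that array. The log2 ratios of the pair differed by 2.99, a factor of 7.95, against a probe set spread of 0.54, and a uniform scaling cannot change this difference. The log2 ratio of impdh1b was 0.34 above that of gart. The direction of impdh2 held in every setting, at 1.07 to 2.22-fold. It was past 2-fold under 4 of the scalings, at 2.03 to 2.22-fold.

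Scaling moved all 8 ratios together, and their signs held. Setting ribosomal protein genes equal gave the highest ratios, with 7 of 8 past 2-fold, and setting bright probe sets equal gave the lowest, with 6 of 8. In the first case the median log2 ratio of all measured genes was 0.87 and that of the 8 genes 2.72. In the second case the median of all measured genes was -0.19 and that of the 8 genes 1.67. The share of all measured genes past 2-fold was not counted under either setting. The IMP dehydrogenase impdh1b fell to a ratio of 2.39 when its dim probe set was averaged in, a value fixed by the floors.

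**Figure D3:**
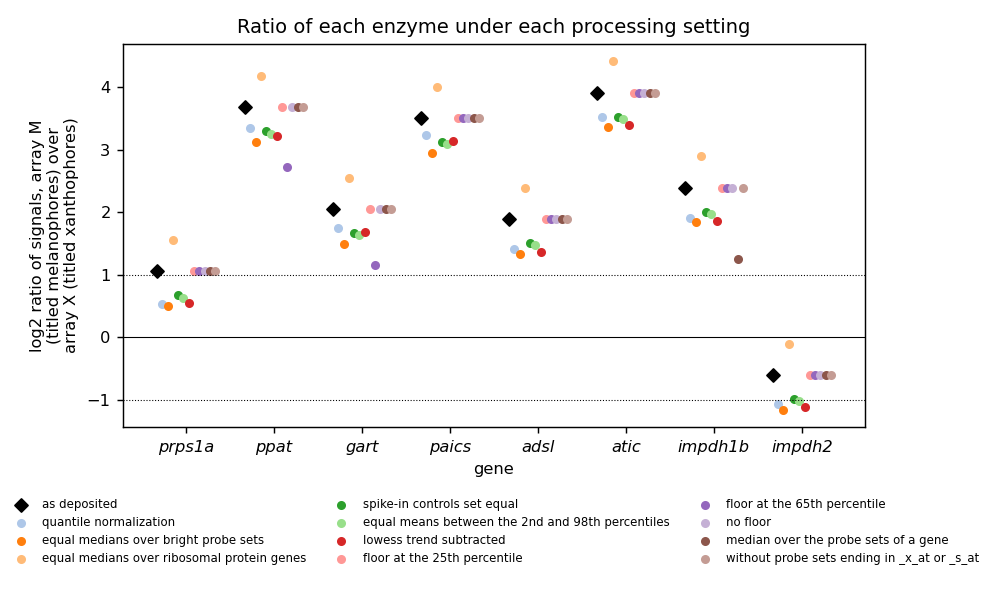
Log2 ratio of each gene (array M over array X) as deposited (black diamonds) and under the 11 other settings (coloured circles); dotted lines mark 2-fold either way. All points of the 6 genes up to IMP and of impdh1b are above 0 and all of impdh2 below it; ppat and gart drop when the floor is raised, and impdh1b drops when its probe sets are averaged by their median.

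Other route genes, and genes that salvage or use the products of the route, went both ways or lay within 2-fold. Of 3 other measured purine route genes, none was past 2-fold, against 15.5% of measured genes towards array M and 4.09% towards array X. Among the 3, prps1b and prpsap2 belong to the entry step described above. The third, adssl, which starts the AMP branch from IMP, stood at 151.3 against 134.4. Of 8 measured salvage and breakdown genes, 2 were 2-fold brighter on array M, where 15.5% of all measured genes were, and 1 on array X, where 4.09% were, with a median log2 ratio of 0.30 (-0.09 with the spike-ins set equal). The salvage genes hprt1l, related to the transferase that recovers hypoxanthine and guanine, and adka, an adenosine kinase, had ratios of 3.20 (267.6 against 83.5) and 2.60 (217.3 against 83.5). With the spike-ins set equal the ratio of adka rounded to 2.00 and fell just under the threshold. The second adenosine kinase adkb read 70.6 against 28.7, which is under the floor, so its ratio was bound only to at least 1.62. The ecto-enzyme gene nt5e, which releases adenosine from AMP, was 2.49-fold brighter on array X (55.5 against 138.3). None of the 8 measured nucleotide kinases was past 2-fold, against the same shares of 15.5% and 4.09%. Their median was 0.59, beside 0.36 over all measured genes, and the highest were the guanylate kinase guk1a, which turns GMP to GDP (203.2 against 105.4), the adenylate kinases ak1 (769.3 against 450.4) and ak4 (1964.8 against 1263.1), and nme4 (91.9 against 60.9).

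The measured genes that supply folate one-carbon units leaned the same way as the route. Formyl folate is consumed by the products of gart and atic. Of 6 measured genes, 4 were 2-fold or more brighter on array M, against 15.5% of all measured genes, and 1 on the other, against 4.09%. Their median log2 ratio was 1.27 beside 0.36 over all measured genes. Mitochondrial serine hydroxymethyltransferase, shmt2, which moves a carbon from serine to folate, read 452.4 against 104.1, a ratio of 4.35. The folate-retaining enzyme gene fpgs read 952.5 against 226.6, a ratio of 4.20. Its other 4 probe sets gave 1.88 to 3.15, of which 2 are bounds. The cytosolic synthase gene mthfd1b, whose product makes the formyl folate used by the route, read 423.2 against 145.9, a ratio of 2.90. The glycine decarboxylase gene gldc had a ratio of 2.02 (222.7 against 110.4) and the mitochondrial mthfd2 of 1.65 (1658.9 against 1004.1). The glycine cleavage partner dldh ran the other way, at 35.8, under the floor, against 129.6, which is at least 2.75-fold, and a floor raised to the 65th percentile took it under 2-fold. The count towards array M was 3 of 6 with the spike-ins set equal, where gldc stood at 1.55, against 6.59% of measured genes. Over the scalings tried it was 2 to 5. The count of 5 came with ribosomal protein genes set equal, where the median of all measured genes was 0.87. Among the scalings, the share of all measured genes was counted only with the spike-ins set equal.

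Genes around the supply of sugar and amino acids gave mixed ratios. Of 4 measured pentose phosphate genes 1 was past 2-fold towards array M, where 15.5% of all measured genes were. It was transaldolase taldo1 at 6077.4 against 2150.5, a ratio of 2.83. The others were pgd at 642.2 against 365.7, rpe at 94.1 against 66.0 and the transketolase tktb at 2596.7 against 1827.4, and the list's median log2 ratio was 0.66. The amino acid list held genes that make glutamine, aspartate, serine or glycine and genes that use them, such as ass1. Of its 11 measured genes, 3 were past 2-fold on array M and 1 on the other. The shares of all measured genes were 15.5% and 4.09%, and the list's median was 0.56. The serine synthesis gene phgdh read 436.0 against 99.3, a ratio of 4.39. Argininosuccinate synthetase, ass1, which uses aspartate, read 207.8 against 48.2, a ratio of 4.31, and the mitochondrial aspartate aminotransferase got2a had a ratio of 2.02 (141.9 against 70.1; 1.55 with the spike-ins set equal). The glutamine synthetase glula was 3.65-fold brighter on array X (148.5 against 542.4). The other glutamine synthetase gene, glulb, was brighter on both arrays and nearly equal (4166.8 against 4971.0, 1.19-fold towards array X). Its second probe set read 183.9 against 193.5. Beside got2a, the related got2b read 1171.1 against 693.3, a ratio of 1.69. Setting ribosomal protein genes equal took the median of all measured genes to 0.87, and the share of them past 2-fold was not counted there. Counts towards array M rose to 2 of 3 other route genes, 3 of 8 salvage and breakdown genes and 5 of 8 nucleotide kinases. They rose to 4 of 4 pentose phosphate genes and 6 of 11 genes of the amino acid list. Without that share these counts do not set the lists apart from other genes.

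The pyrimidine synthesis and cell proliferation genes that could be measured were all within 2-fold as deposited. None of 8 measured pyrimidine genes was past 2-fold in either direction, against 15.5% of measured genes towards array M and 4.09% towards array X. In lists this short a count of 0 lies near those shares. The median log2 ratio of the pyrimidine genes was 0.21, turning to -0.17 with the spike-ins set equal. The first enzyme of that route, cad, read 651.6 against 546.3, and its second probe set 368.4 against 414.9. Next to it, dhodh stood at 99.2 against 68.0, the CTP synthase ctps1a at 331.3 against 237.2 and the uridine kinase uck2a at 96.4 against 81.8. Of 21 named proliferation genes only 10 could be measured. The rest, among them mki67, cdk1, ccnb1, ccna2, top2a and plk1, were under the floor on both arrays. None of the 10 was past 2-fold, against the same shares of all measured genes, and their median was -0.16. The replication helicase genes mcm4 (60.0 against 117.3) and mcm2 (82.1 against 135.4) and the mitotic kinase aurka (138.2 against 219.2) read higher on array X, and mcm3 read 62.5 against 37.0, which is under the floor. With the spike-ins set equal, 3 of the 10 were 2-fold brighter on array X, against 8.25% of measured genes. None was on array M, against 6.59%. The count of pyrimidine and proliferation genes 2-fold brighter on array M was 0 in each of the other settings except with ribosomal protein genes set equal, where it was 1 of 7 and 2 of 9 measured genes. On array X, 3 of 10 proliferation genes were 2-fold brighter also with quantile normalization, equal medians of bright probe sets, equal trimmed means and the lowess trend subtracted. None was with ribosomal protein genes set equal. The share of all measured genes was not counted under any of these settings.

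**Figure D4:**
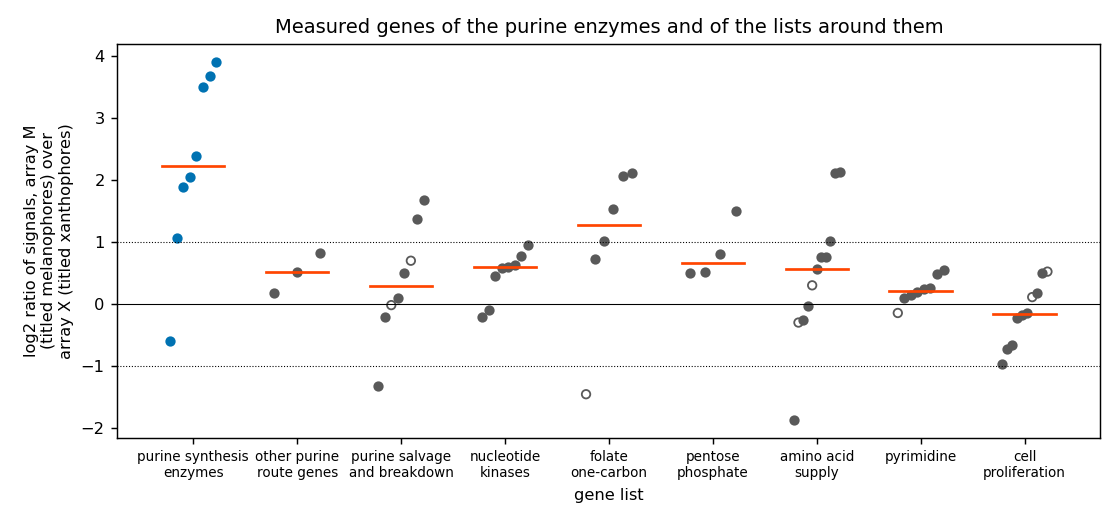
Log2 ratio (array M over array X) of each measured gene in the 8 purine genes (blue) and 8 lists around the route (grey), with each list's median (orange bar); open circles have a signal under the floor on 1 array, and dotted lines mark 2-fold either way. The median is 2.22 for the purine genes and 1.27 for folate genes, and the other lists lie between -0.16 and 0.66.

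Of the listed genes of the pteridine route, which starts from GTP, 3 were measured. The GTP cyclohydrolase gch2, which opens the pteridine route in xanthophores, read 803.9 against 140.5, a ratio of 5.72, close to that of impdh1b. Its other probe set read 44.8 against 2.1, under the floor on both arrays, and gave no ratio. The gene is also among the xanthophore markers counted above, so its value is not a separate observation. The recycling enzymes pcbd1 (262.5 against 219.6) and qdprb.1 (89.7 against 55.0) were under 2-fold.

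Markers of cells other than pigment cells also differed between the arrays. For scale, 15.5% of all measured genes were 2-fold or more brighter on array M and 4.09% on array X. Of 8 listed endothelial markers 4 had a named probe set, 3 of them at 2-fold or more towards array M, as for the purine genes. Their signals summed to 3402.9 against 841.6. Of 8 leukocyte markers 7 were named and 4 measured, 2 of them 2-fold brighter on that array. The neutrophil and macrophage gene lyz ran the other way, at 3.8, under the floor, against 85.7, which is at least 1.82-fold, and with the spike-ins set equal the count was 1 in each direction. The signals of all 7 named leukocyte markers summed to 682.2 against 419.5, and the defining markers ptprc, lcp1 and mpx were under the floor on both. Of 7 keratinocyte markers 3 were 2-fold brighter on array M (summed 19722.7 against 15572.4). The brightest, krt8, read 11557.9 against 10946.5, and krt4 and agr2 read higher on array X. With the spike-ins set equal, 3 were 2-fold brighter on array M and 1 on array X. Connective tissue and bone markers were higher on array X, with 7 of 7 measured genes 2-fold brighter there (summed over all 8 named markers, 4938.1 against 20325.6). So were 2 of 2 measured erythrocyte markers. The lowest signals on arrays M and X were 0.2 and 0.3, so a reading above 0 does not show that a cell type was present. Only 1 of 7 iridophore markers, ednrba, had a named probe set (88.9 against 84.9). The part of these other cells in the purine ratios was not tested.

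The 5 genes outside the route whose signal pair was nearest to the median pair of the 8 genes (834.8 and 202.6) were sik3, sh3rf1, slc49a4, snx5 and tmem14ca. Likeness was the distance on the log2 scale over 2 arrays, from 0.12 for sik3 (772.4 against 197.9) to 0.21 for tmem14ca (736.9 against 188.9). With 2 arrays such a list describes the level and the ratio alone.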

How the data were processed

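Total RNA from 2 preparations was labelled with biotin and hybridised to 1 Affymetrix array each, per the labels' protocols. The authors deposited MAS 5.0 signal intensity per probe set on a linear scale (15617 probe sets, 115 of them controls). The submitters' processing notes name MAS5; the sources used here state neither a scaling target nor detection calls. The number of arrays limits the precision.

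Samples were grouped by title, as array M (titled melanophores) and array X (titled xanthophores). Deposited intensities were used unscaled with Python 3.11.15, and log2 ratios were taken after flooring at each array's median. Symbols came from the platform annotation, updated by gene ID: of the transcript probe sets 10795 had 1 symbol, 135 had several (left without a name) and 4572 had none here. A gene took its probe set with the highest mean log2 signal. No test was possible with 1 array per group. Counts were made at 2-fold and read against all measured genes. The calculation was tested on simulated data. The 8 genes and all lists were chosen with earlier results of these data known. Text names all 8 genes, every measured gene of lists with up to 6, the 4 largest ratios of longer lists and the 5 nearest genes. Marker genes, gene neighbours, second probe sets and the related genes glulb and got2b were named after their values were seen. Alternatives covered 6 scalings or trend corrections, 3 floors, probe set choice and the fold threshold. No sequence table was used here.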

Additional observations from a re-analysis of the deposited data

How the results depend on the processing

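Under the 11 alternatives run for each of the 8 genes, no log2 ratio changed sign. Of the 88 values 76 were 2-fold or more in either direction, those of impdh2 towards array X. Not all of these values are independent checks. A floor at the 25th percentile, no floor, and leaving out probe sets ending in _x_at or _s_at returned the deposited ratio of each gene. The count of genes 2-fold brighter on array M was 6 or 7 in all of the alternatives. At a threshold of 4-fold it was 5, against 2.22% of measured genes. The share of all measured genes past 2-fold towards array M was 15.5% as deposited and 6.59% with the spike-ins set equal. That share was not counted under the other alternatives, so the counts there cannot be read against it. The count on array X was 0 as deposited. It was 1 (impdh2) with quantile normalization, equal medians of bright probe sets, equal trimmed means, the lowess trend subtracted or a threshold of 1.5-fold. The median log2 ratio of the 8 genes, 2.22 as deposited, was 1.82 with quantile normalization, 1.67 with equal medians of bright probe sets, 1.80 with equal trimmed means, 1.77 with the lowess trend subtracted and 2.72 with ribosomal protein genes set equal. These shifts are the scalings themselves, which moved the median of all measured genes from 0.36 to between -0.19 and 0.87. Signal near the floor limits ppat and gart on array X. No paired analysis was possible because each group holds 1 array.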

Other observations

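Apart from the adjacent pair ppat and paics, the measured neighbours of the purine genes in RefSeq's gene order on GRCz12tu were within 2-fold, except fn1b. The fibronectin gene fn1b, whose span overlaps that of atic, read 140.8 against 488.4, which is 3.47-fold brighter on array X, while atic was 15.03-fold brighter on the other. Next to impdh1b, the small GTPase gene rap1b read 2349.4 against 1224.5. Beside impdh2, arih2 read 436.5 against 305.4 (1.43) and dalrd3 548.1 against 372.1 (1.47), both higher on array M where impdh2 was lower. The gene hemk2 beside gart read 75.5 against 58.6 (1.29). Array M was brighter in general, by a median factor of 1.30 for the spike-ins. The neighbouring genes were chosen by position after the purine values were known, and no explanation was tested.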
